A study of Drosophila melanogaster with 4 samples.

Results

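Intergenic open regions shared by all libraries were described in wings of female Drosophila melanogaster pupae. FAIRE-seq, which recovers nucleosome-depleted DNA from crosslinked chromatin by phenol extraction, had been run on 4 libraries of 40 wings each, and 1 peak list per library was deposited on dm6. Peaks of the 4 lists that overlapped by 1 bp or more were merged into 24088 regions. An intergenic shared region had a peak in all 4 lists, was narrower than 1000 bp, and had its summit outside every annotated gene and more than 500 bp from any gene end. This left 737 regions, or 9.93% of the 7419 narrow regions found in all 4 lists. The regions were chosen by presence in the lists, width, −log10 q (for picking the summit) and summit position, which are therefore descriptions of them and not results.

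Control wings had the genotype UAS-Nslmb-vhhGFP with osa-GFP (2 libraries), and Osa-deGrad wings carried nub-GAL4 in addition (2 libraries). In both genotypes osa-GFP was homozygous. It tags Osa, an ARID-domain subunit that defines one form of the Brahma (SWI/SNF) remodeler. UAS-Nslmb-vhhGFP encodes an F-box protein fused to an anti-GFP nanobody, which sends GFP-tagged proteins to degradation. nub-GAL4 drives it in the wing, so control wings held the transgene without a driver. Animals grown at 23 °C were shifted to 29 °C as wandering larvae, staged as prepupae (0 to 12 h after puparium formation) and dissected 24 h later, at 24 to 36 h. The replicates are not stated to be separate crosses, so their spread may be technical. The 4 lists held 13953 to 18007 peaks, and both replicate 2 lists were the longer ones. Read depth is unknown, and fewer cells with an open site cannot be told apart from less opening per cell.

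Stretches between genes in the fly genome hold many enhancers, which are short DNA segments bound by transcription factors that switch a gene on in particular cells, often from many kilobases away. Developmental regulator genes commonly have several, each acting in another tissue or at another time. SWI/SNF remodelers slide or evict nucleosomes at such elements. An open region is not itself proof of an enhancer, and the gene it may act on is not known from its position, so the flanking genes below are positions only.

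All 7 wing genes examined (nub, vg, sd, ap, bs, Dll and rn) had regions in all 4 lists within the gene or 5 kb of it, from 2 to 7 each. So did 9 of 16 muscle, 6 of 11 hemocyte and 11 of 12 tracheal marker genes. Summed peaks at the muscle markers numbered 50 and 66 for Osa-deGrad and 58 and 72 for control libraries, at the hemocyte markers 14 and 21 against 13 and 20, and at the tracheal markers 51 and 67 against 60 and 83. No region lay at the hemocyte genes NimC1, He and PPO1, at the muscle genes Act57B and Him or at the tracheal gene Osi19. Some of these marker genes also stand on other gene lists used below, so a region at them does not mark a single cell type. The part of other cell types in the results below was not tested.

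The regions were compact and overlapped between libraries by definition. Their median width was 448 bp, against 495 bp for narrow shared regions in gene bodies and 398 bp for those within 500 bp of a gene end. In 673 of the 737 regions each library had exactly 1 peak. The best summits of the 4 libraries lay a median of 97 bp apart, and within 100 bp in 376 regions. For narrow shared regions in gene bodies the median was 100 bp, and near gene ends 66 bp. Of 2874 narrow intergenic regions in any list, 25.6% were in all 4 lists and 43.1% in 1 list. The shares in all 4 lists were 26.7% of 11053 regions in gene bodies and 38.5% of 9676 regions near gene ends.

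Most of the regions lay a few kilobases from a gene and not deep in a desert. The summit was a median of 1795 bp from the nearest gene end, with quartiles of 890 and 4205 bp. By distance, 218 regions lay over 500 and up to 1000 bp away, 174 at 1 to 2 kb, 203 at 2 to 5 kb, 119 at 5 to 20 kb and 23 farther than 20 kb. The gene-free gap around a region had a median length of 9980 bp, against 4001 bp over all 4236 gaps that were long enough to hold one. Protein-coding genes stood on both sides of 401 regions, on 1 side of 252 and on neither side of 84. A long noncoding RNA gene bordered 287 of them and a tRNA gene 29.

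Of the 4236 gaps, 518 held a region (12.2%). The share was higher in longer gaps, from 4.34% of 1199 gaps under 2 kb to 24.5% of 323 gaps of 20 to 50 kb, and was 19.8% in the 81 gaps of 50 kb or more. Density went the other way. Counting only sequence more than 500 bp from a gene end, gaps under 2 kb held 10.4 regions per 100 kb, gaps of 5 to 10 kb 3.23, gaps of 20 to 50 kb 1.55 and gaps of 50 kb or more 0.431. Gaps of 20 kb or more, called deserts here, held 184 regions (24.97%), although 309 of the 404 deserts held none.

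**Figure D1:**
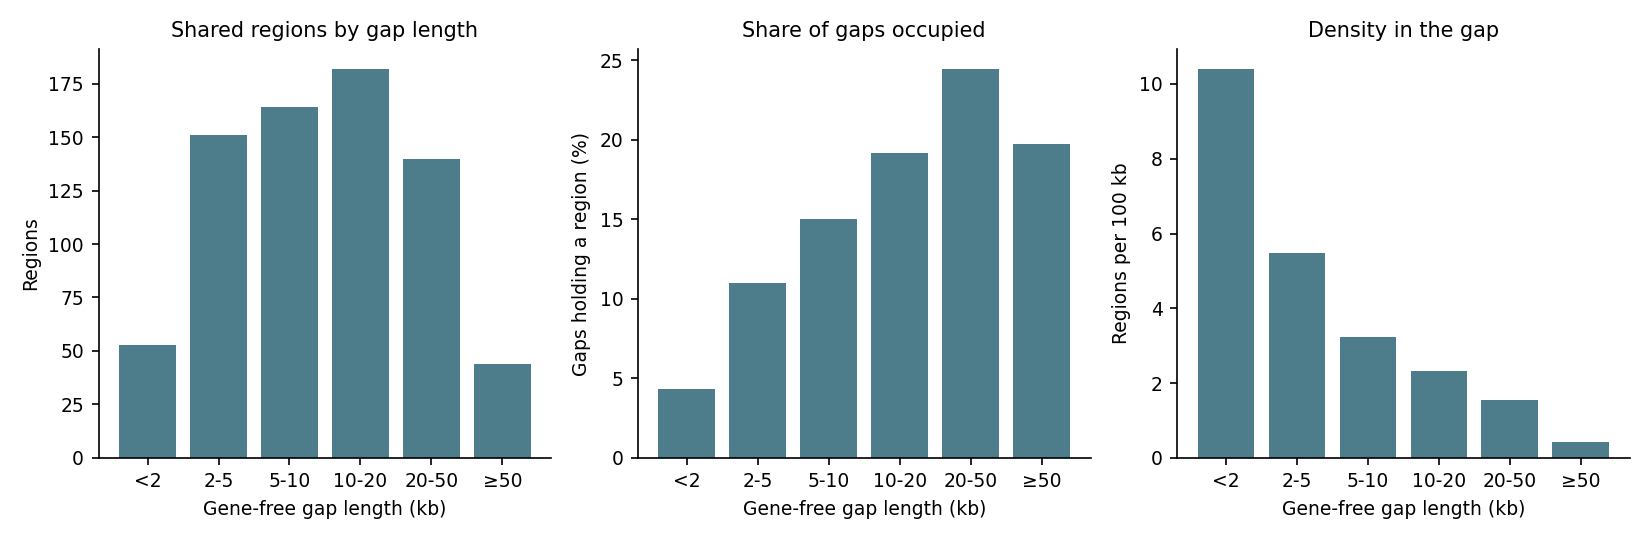
Intergenic shared regions by the length of the gene-free gap around them (x axis, kb), as a number of regions (left), as the share of such gaps that hold 1 or more (middle, percent) and as regions per 100 kb of sequence more than 500 bp from a gene end (right). The share of occupied gaps is highest at 20 to 50 kb (24.5%), and the density is highest under 2 kb (10.4) and lowest at 50 kb or more (0.431).

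The longest empty desert ran over 710734 bp of 3L between CG42598 and CG40228, with 7 intergenic regions that were missing from 1 or more lists. The longest gap with a shared region spanned 426977 bp of the Y chromosome before FDY. Its region (Y, 2867571 to 2867833) was 1 of 3 on the Y, although all wings were labelled female. Their source was not tested, and without them 734 regions remained. Next came 245765 bp of 2R between Pld, a phospholipase D gene, and the noncoding gene lncRNA:CR46075, with 1 region 6569 bp from the latter. A gap of 209537 bp on 3R between CG41099 and CG42402 held 1 region, as did gaps beside CG10651 (113115 bp), CG12567 (90397 bp) and AOX4, an aldehyde oxidase gene (82634 bp). Chromosome 3L held 223 of the 737 regions, 14.8% of its narrow shared regions, against 7.17% on X, 8.19% on 2L, 9.08% on 2R and 9.79% on 3R. The small chromosome 4 had 6 of 34 (17.6%), and the Y 3 of 7.

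Values of single regions are the authors' fold enrichment of the region's best peak in each list, always given as Osa-deGrad 1 and 2, then control 1 and 2. Each fold describes a peak within its own list. To set libraries side by side, the 7419 narrow shared regions were ranked by that fold in each library and given as percentiles, where 100 is the strongest. Being in all 4 lists limits how weak a region can be in any library.

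The 12 strongest regions were taken by their lowest percentile over the 4 libraries, so each is strong in all of them. The first lay in a desert of 3L, 50936 bp from scro, which encodes an NK2-type homeodomain protein (24672967 to 24673355). Its folds were 31.5, 17.2, 49.1 and 23.5, and it was the strongest of all narrow shared regions in 3 of the libraries, with a percentile of 99.9865 in Osa-deGrad 1. Next was a region 3887 bp from Eaf6, a histone acetyltransferase complex gene, in the gap shared with Blimp-1 (3L, 5611952 to 5612462), with folds of 13.8, 12.8, 15.97 and 14.9. It was followed by one 927 bp from Dll, the homeodomain gene of distal appendages (2R, 24813625 to 24814043), with folds of 17.3, 11.6, 16.5 and 13.5. None of the 3 separated the genotypes by percentile. Being picked for a high percentile in every library left them little room to do so.

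The other 9 had varied neighbours. The region at 3R 16206983 to 16207805, with tara as the next protein-coding gene on one side, had folds of 15.2, 10.8, 16.8 and 15.6, and both Osa-deGrad percentiles lay below both controls by 0.243 points. The region at X 18312415 to 18313114 lay between the protein-coding genes upd1, for a JAK/STAT ligand, and CG6023 (13.3, 11.97, 15.7 and 13.1). Beside Hr38, an orphan nuclear receptor gene, the folds were 12.6, 11.3, 14.5 and 12.5 (2L, 20715872 to 20716793). On either side of the gustatory receptor gene Gr93a stood a strong region, at 3R 21830610 to 21831541 and 21837252 to 21837999, above the 94th percentile in every library. One more was in the gap of Sp1, an appendage transcription factor gene (X, 9770866 to 9771641, with 11.9, 10.1, 22.0 and 13.4), where both Osa-deGrad percentiles lay lower by 2.32 points. A pair lay before CG42524 (2R, 15600835 and 15610705), of which the latter ranked higher in Osa-deGrad by 1.33 points, and the last beside Cyt-c1L (3R, 29207536).

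Most occupied gaps held a single region, and some held several. Of the 518 occupied gaps, 396 held 1 region, 75 held 2 and 47 held 3 or more, and the 47 gaps together held 188 regions. Gaps with 1 region had a median length of 5871 bp and those with 2 regions 11369 bp. Whether regions group beyond what gap length gives was not tested. Chromosome 3L carried 19 of the 47 gaps with 3 or more. The NijA to CG43245 gap and the Eaf6 to Blimp-1 gap held 10 each, the Tollo to Best4 gap 9, and the gaps beside scro, Su(z)2 and ptc 6 each.

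Of 109 transcription factor genes that bordered a gap over 1000 bp, 53 bordered one with a shared region (48.6%), and of 39 signalling genes 19 did (48.7%), against 715 of 4704 protein-coding genes (15.2%). Their gaps were also longer, with medians of 7329 and 9879 bp against 3913 bp, and held 4.26 and 5.54 regions per 100 kb against 2.04. Density was as high or higher on short lists, at 5.90 for muscle markers (3 regions), 9.34 for wing genes (5 regions) and 23.4 for hemocyte markers (3 regions). Genes of neuronal receptors, channels and guidance molecules had 3 of 66 (4.55%: Ten-m, caps and nAChRalpha7) and 0.293 regions per 100 kb, in gaps with a median of 6834 bp. Cytoplasmic ribosomal protein genes had 1 of 20, RpS3A, and 0.251 per 100 kb. Cuticle, chitin and zona pellucida domain genes had 6 of 28 (21.4%), bristle and E(spl) genes 2 of 15, muscle markers 3 of 14, hemocyte markers 1 of 3 and tracheal markers 3 of 10. No list was tested, and the lists were written with results of these data known. Transcription factor genes bordered the gap of 76 of the 737 regions, or 10.3%.

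**Figure D2:**
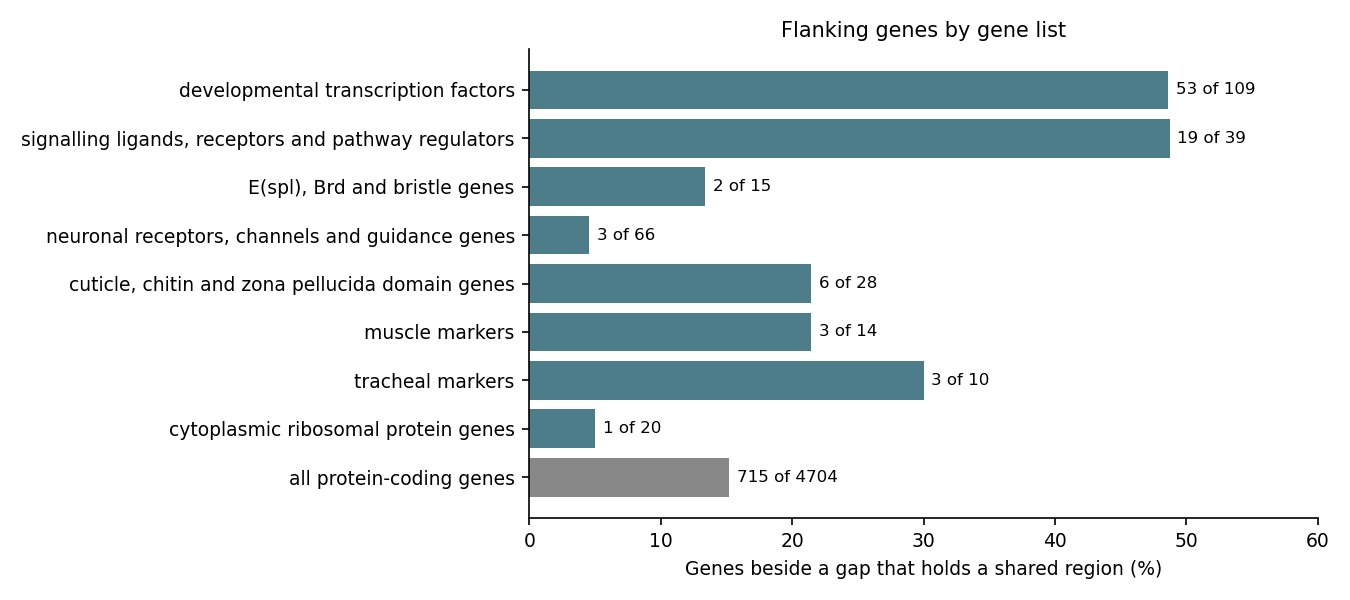
Share of the genes of each list that border a gap holding an intergenic shared region (x axis, percent), among list genes that border any gap over 1000 bp. Numbers beside the bars are genes; lists with fewer than 10 such genes are not drawn. Transcription factor and signalling genes reach 48.6% and 48.7%, and all protein-coding genes 15.2%.

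The next comparison asked whether the regions kept their rank among shared regions when Osa was targeted. As a set they ranked lower in Osa-deGrad wings. Their median percentile was 48.2 and 44.9 in the Osa-deGrad libraries and 55.5 and 54.1 in the controls, so the genotypes did not overlap. The means were 46.5 ± 2.39 (SD, n = 2) and 54.8 ± 0.977 (SD, n = 2), a difference of -8.23 points. The exact permutation test over the 4 libraries (two-sided) gave p = 0.333, the smallest p that 2 against 2 can give, so the difference cannot pass a threshold of 0.05. Without the Y regions the difference was -8.35 points. Single regions did not group the libraries fully by genotype. Over the 737 regions the Pearson correlation was 0.686 between the Osa-deGrad libraries but 0.517 between the controls. Control 2 correlated better with Osa-deGrad 1 (0.565) and Osa-deGrad 2 (0.621) than with control 1. For control 1 the values with Osa-deGrad 1 and 2 were 0.507 and 0.464.

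Narrow shared regions within gene bodies did much the same, at 50.8 and 44.2 against 56.1 and 53.7. Those near gene ends went the other way, at 49.5 and 54.9 against 45.5 and 46.5. The intergenic minus gene-body median was -2.55 and 0.694 for the Osa-deGrad libraries and -0.687 and 0.411 for the controls, with overlap (exact permutation test, two-sided, p = 1). Against regions near gene ends the difference was -1.23 and -10.0013 for Osa-deGrad and 9.96 and 7.55 for the controls (exact permutation test, p = 0.333, the smallest possible). The ranks are shares of 1 scale, so a lower rank of the intergenic set and a higher rank of gene ends are not separate measurements.

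**Figure D3:**
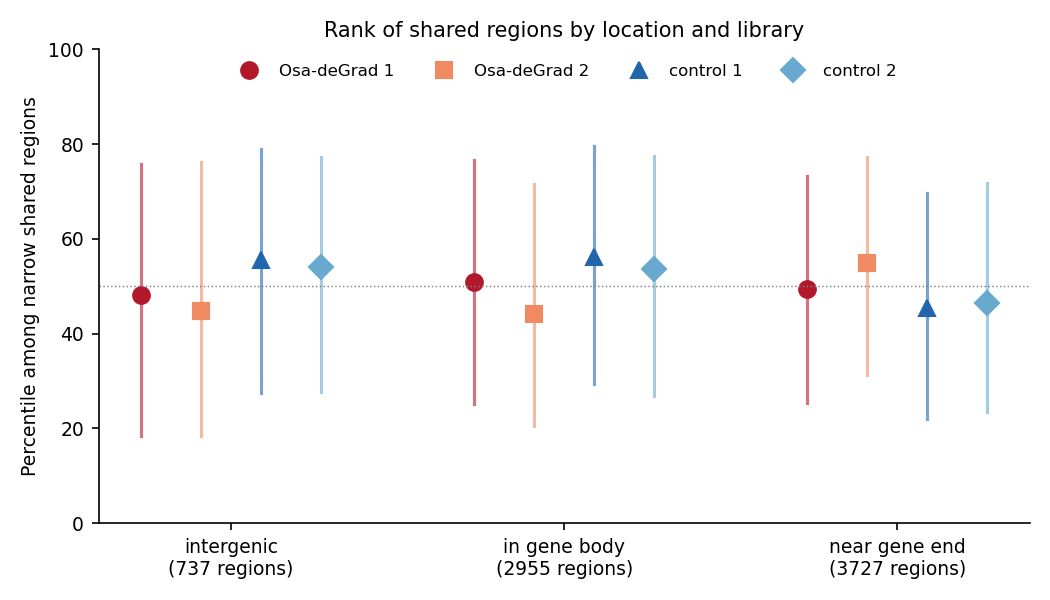
Percentile of narrow shared regions among all 7419 (y axis, from the authors' fold enrichment ranked in each library) for regions between genes, within gene bodies and within 500 bp of a gene end. Symbols are medians per library and lines run between quartiles. The intergenic medians of both Osa-deGrad libraries (48.2 and 44.9) lie below both controls (55.5 and 54.1).

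Region by region, 182 of the 737 (24.7%, 95% Wilson interval 21.7 to 27.9, which covers counting error only) had both Osa-deGrad percentiles below both control percentiles, and 98 (13.3%, 11.04 to 15.9) had both above. Over all 7419 narrow shared regions these shares were 17.3% and 18.0%. The other 457 regions overlapped between genotypes. In gene bodies 22.8% ranked lower and 13.8% higher, and near gene ends 11.4% and 22.3%. These counts are relative to all narrow shared regions. Ranking the 737 among themselves gives every library the same mean percentile, so a shift of the whole set is removed by construction. On that scale 135 ranked lower and 154 higher, and the median difference was 0.746 percentile points in place of -2.97. All 135 were among the 182, and all 98 were among the 154. Of the 673 regions with 1 peak in every list, 22.9% ranked lower and 13.4% higher. Of the 376 with best summits within 100 bp, 19.4% and 14.1% did, against 14.4% and 19.0% of all narrow shared regions with that property. No single region has a test of its own with 2 libraries a genotype and no read counts.

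**Figure D4:**
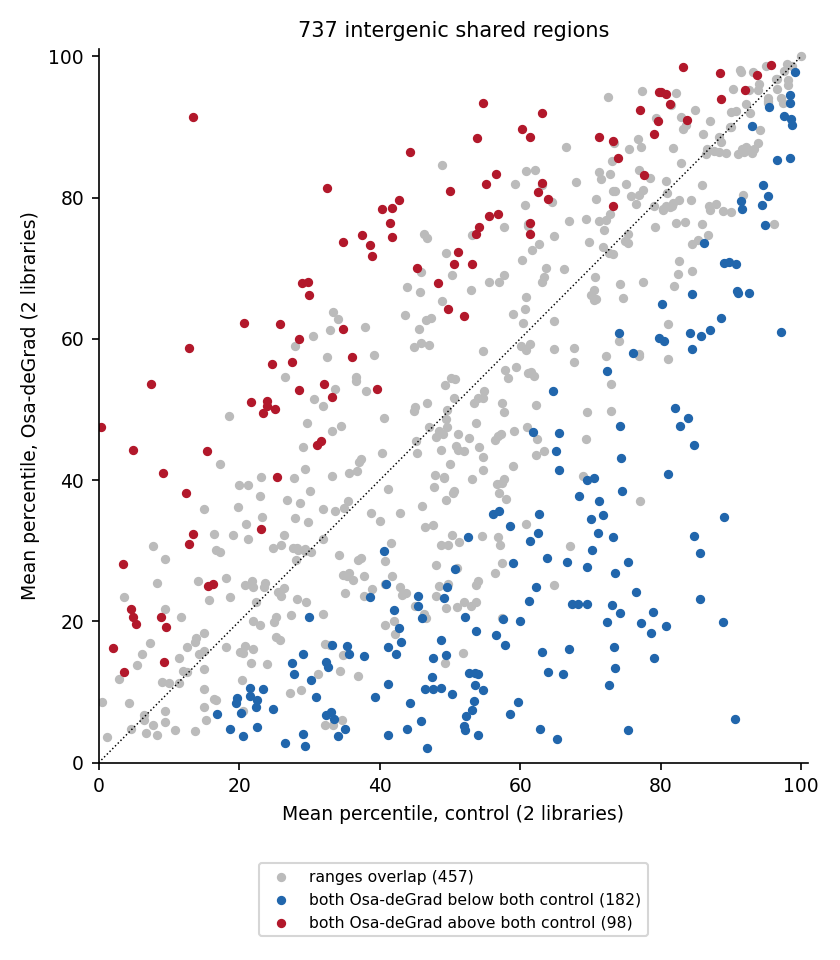
Mean percentile of each of the 737 intergenic shared regions in Osa-deGrad wings (y axis) against control wings (x axis), each the mean of 2 libraries. Blue points (182) had both Osa-deGrad values below both control values, red points (98) both above, and the dotted line marks equal rank.

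The lower-ranking regions occurred at every distance, width and strength, but in unequal shares. No bin was set against narrow shared regions of the same distance, width or strength, whose shares can differ. Under 500 bp, for example, they were 16.6% lower and 16.8% higher. Strength is the mean of the percentiles that make the call, so a mean near either end of the scale leaves less room for separation. Against 17.3% lower and 18.0% higher among all narrow shared regions, 62 ranked lower and 21 higher of the 203 at 2 to 5 kb from a gene end (30.5% and 10.3%). At 5 to 20 kb the counts were 36 and 12 of 119 (30.3% and 10.1%), and at 1 to 2 kb 35 and 15 of 174 (20.1% and 8.62%). At over 500 to 1000 bp the counts were even, at 46 each (21.1%), and beyond 20 kb they were 3 and 4 of 23 regions (13.04% and 17.4%). Among regions of 700 bp or wider, 40 of 115 ranked lower and 7 higher (34.8% and 6.09%), and among those under 300 bp 15 and 10 of 93 (16.1% and 10.8%). At a mean percentile over 75 26 of 154 ranked lower and 20 higher (16.9% and 12.99%), and at 25 to 50 the counts were 81 and 28 of 266 (30.5% and 10.5%). In gaps of 50 kb or more 14 of 44 ranked lower and 7 higher, with median percentiles of 58.7 and 43.1 for Osa-deGrad and 74.4 and 62.3 for the controls.

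The region before ich, which encodes a zinc finger protein (3R, 8947565 to 8948147), ranked lower in Osa-deGrad wings with folds of 4.77, 4.02, 11.7 and 10.05. Its percentiles were 25.1 and 14.9 against 93.1 and 84.8. Beyond the other end of ich, in the gap with CAHbeta, 3 of 4 regions ranked lower. Of the 737 regions 24.7% did, and of all narrow shared regions 17.3%. The strongest of these (3R, 8971394 to 8972223) had folds of 8.17, 5.66, 13.8 and 13.6, and only the last of the 4, at 8976152, overlapped.

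A region before Ino80, the ATPase gene of another chromatin remodeler (3R, 19367723 to 19368141), had folds of 3.25, 3.22, 6.74 and 8.51. In the gap of cv-c, a RhoGAP gene of crossvein formation, the region at 3R 14491306 to 14492050 had folds of 3.03, 3.54, 10.5 and 7.59. The values were 3.86, 2.61, 7.23 and 7.53 beside ND-20L, in a gap between protein-coding genes that ends at the homeobox gene Dr (3R, 29519261 to 29520136). Between Duox, a dual oxidase gene, and CG3119 they were 3.76, 4.17, 7.27 and 8.05 (2L, 2833732 to 2834143). In each of these 4 regions both Osa-deGrad percentiles lay below 18 and both control percentiles above 58. Best summits of the libraries were 646 bp apart at ND-20L and 136 to 205 bp apart at the other 3.

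The largest separation on paper, at 3R 13542698 to 13543627 beside CG31337, compared different sites in part. Its folds were 3.99, 2.84, 11.5 and 10.7, but 1 wide control 1 peak joined what were 2 peaks in Osa-deGrad 2 and in control 2. The weaker of those control 2 peaks had a fold of 4.04 and overlapped the only Osa-deGrad 1 peak. The best Osa-deGrad 2 peak, with a fold of 2.84, lay within the stronger control 2 peak, with 10.7. Without control 1 the difference went from -84.3 to -4.40 percentile points, since the region then held the weaker peak alone.

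Among cuticle, chitin and zona pellucida domain genes, dy and nyo gave further examples. Next to dy, which encodes a zona pellucida domain protein of the wing cell membrane, both regions ranked lower (X, 11779666 to 11779994 and 11782015 to 11782440). The latter had folds of 4.77, 5.07, 10.1 and 9.86, at percentiles of 25.1, 34.3, 87.4 and 83.8. Beside nyo, another gene of that family, the folds were 2.74, 3.22, 5.68 and 4.70 (3R, 31566650 to 31567392). The 2 regions before Cpr49Ah, the 1 before Cpr92F (cuticle protein genes), the 1 before pio and the 1 beside e, the ebony gene of cuticle tanning, overlapped. Of the 8 regions at this list, 3 ranked lower and 0 higher, against 17.3% and 18.0% of all narrow shared regions.

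In the opposite direction the widest separation was at 3R 8134461 to 8134804, 4806 bp from Arl8, a lysosomal GTPase gene. The next protein-coding gene on the far side was grn, a GATA factor gene. Folds were 11.4, 9.09, 3.41 and 5.19, at percentiles of 92.7, 90.1, 2.47 and 24.4. A region 526 bp from Np, a transmembrane serine protease gene (2R, 8992305 to 8992570), had folds of 6.13, 6.22, 3.54 and 4.31. Beside oc, a head homeobox gene, the region at X 8657141 to 8657389 had folds of 6.77, 5.10, 2.75 and 2.85, and a second one 842 bp from oc ranked higher too. Another, on the other side of oc (X, 8624806), overlapped.

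Other regions that ranked higher lay 908 bp from comm, which controls Robo sorting (3L, 15729164 to 15729577, with folds of 11.6, 7.87, 5.97 and 6.25), and between CG1077 and Osi1 (3R, 6170720 to 6171213). One was in a gap between the tracheal paralogues reb and exp (2R, 11930152 to 11930820, with folds of 7.81, 9.20, 5.84 and 4.98). The last was between Aldh-III and wech, an integrin adhesion gene (2R, 7477637 to 7477919, with 6.13, 5.16, 3.12 and 4.11). Of these 16 most separated regions, none changed direction under the alternatives in which it was still found. They were picked for wide separation, and some alternatives leave percentiles unchanged, so this was largely set by the choice. The region at Np was not found without Osa-deGrad 2, and CG31337 rested on control 1 as described.

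Regions with opposite directions stood next to each other at en, the posterior compartment selector gene. Its 49274 bp gap to tou held 3 regions on 2R. The first, 1422 bp from en (11529385 to 11529874), ranked higher in Osa-deGrad wings, with folds of 13.8, 9.02, 6.14 and 7.48. The second, 6268 bp away (11534016 to 11534745), ranked lower, with 4.32, 3.34, 7.09 and 9.63 and best summits up to 317 bp apart. The last, 13899 bp away (11541903 to 11542367), ranked higher, with 6.51, 6.95, 3.77 and 6.46. At inv, the paralogue of en, named after its values were seen, a region 2267 bp away (2R, 11471956) ranked lower, with 4.78, 3.11, 11.9 and 7.82, and another at 11469495 overlapped. Of the 47 gaps with 3 or more regions, 11 held both a lower and a higher one, 18 a lower but no higher one, 7 a higher but no lower one and 11 neither. How many such gaps to expect from the number of regions in each was not computed. Of the 188 regions in these gaps 50 ranked lower and 26 higher. These shares were close to those of the 737 (24.7% and 13.3%), where all narrow shared regions gave 17.3% and 18.0%.

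Between Eaf6 and Blimp-1 the 10 regions lay within 16243 bp of 3L, a median of 920 bp apart. Blimp-1 encodes an ecdysone-induced zinc finger repressor that times prepupal development. Against 18.0% higher and 17.3% lower among all narrow shared regions, 5 regions here ranked higher in Osa-deGrad wings, 1 lower, and 4 overlapped. The higher ones were all on the side of Eaf6, at 2485, 3405, 4761, 7690 and 10715 bp from it. The one at 4761 bp had folds of 6.79, 4.41, 4.17 and 3.80, and the one at 7690 bp 7.86, 8.31, 4.17 and 8.37. The latter was separated by 2.45 percentile points only, with control 2 close to the Osa-deGrad libraries and control 1 far lower. The lower one (5625024 to 5625606), 5612 bp from Blimp-1, had folds of 4.21, 5.04, 8.07 and 9.29. Over the 10 regions the median percentile was 66.8 and 49.2 for the Osa-deGrad libraries and 24.8 and 60.8 for the controls, so the genotypes overlapped. Ranked among the 737 alone, 6 of the 10 ranked higher and 1 lower, against 20.9% and 18.3% of the 737.

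The desert between NijA, a ninjurin membrane protein gene, and CG43245 was 75047 bp long. Against 17.3% lower and 18.0% higher among all narrow shared regions, 5 of its 10 regions ranked lower, 2 higher and 3 overlapped. The lower ones included the first 2 regions from NijA and the last 2 before CG43245. At 10713839 to 10714456 the folds were 5.67, 5.73, 11.1 and 9.18, and at 10766751 to 10767201 they were 9.50, 8.53, 16.9 and 12.0. A higher region (10766249 to 10766672) had its summit 433 bp from that of the latter, with 7.11, 5.30, 5.48 and 5.48. By fold Osa-deGrad 2 lay below both controls there, so the call rested on ranks within each library. Of the 9 regions between Tollo, a Toll-family receptor gene that acts in cell intercalation, and Best4, a bestrophin channel gene, 3 ranked lower, 1 higher and 5 overlapped. The 3 lower ones were neighbours between 15252304 and 15254329. The middle one was strong in every library, with folds of 11.9, 8.93, 15.3 and 13.4.

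**Figure D5:**
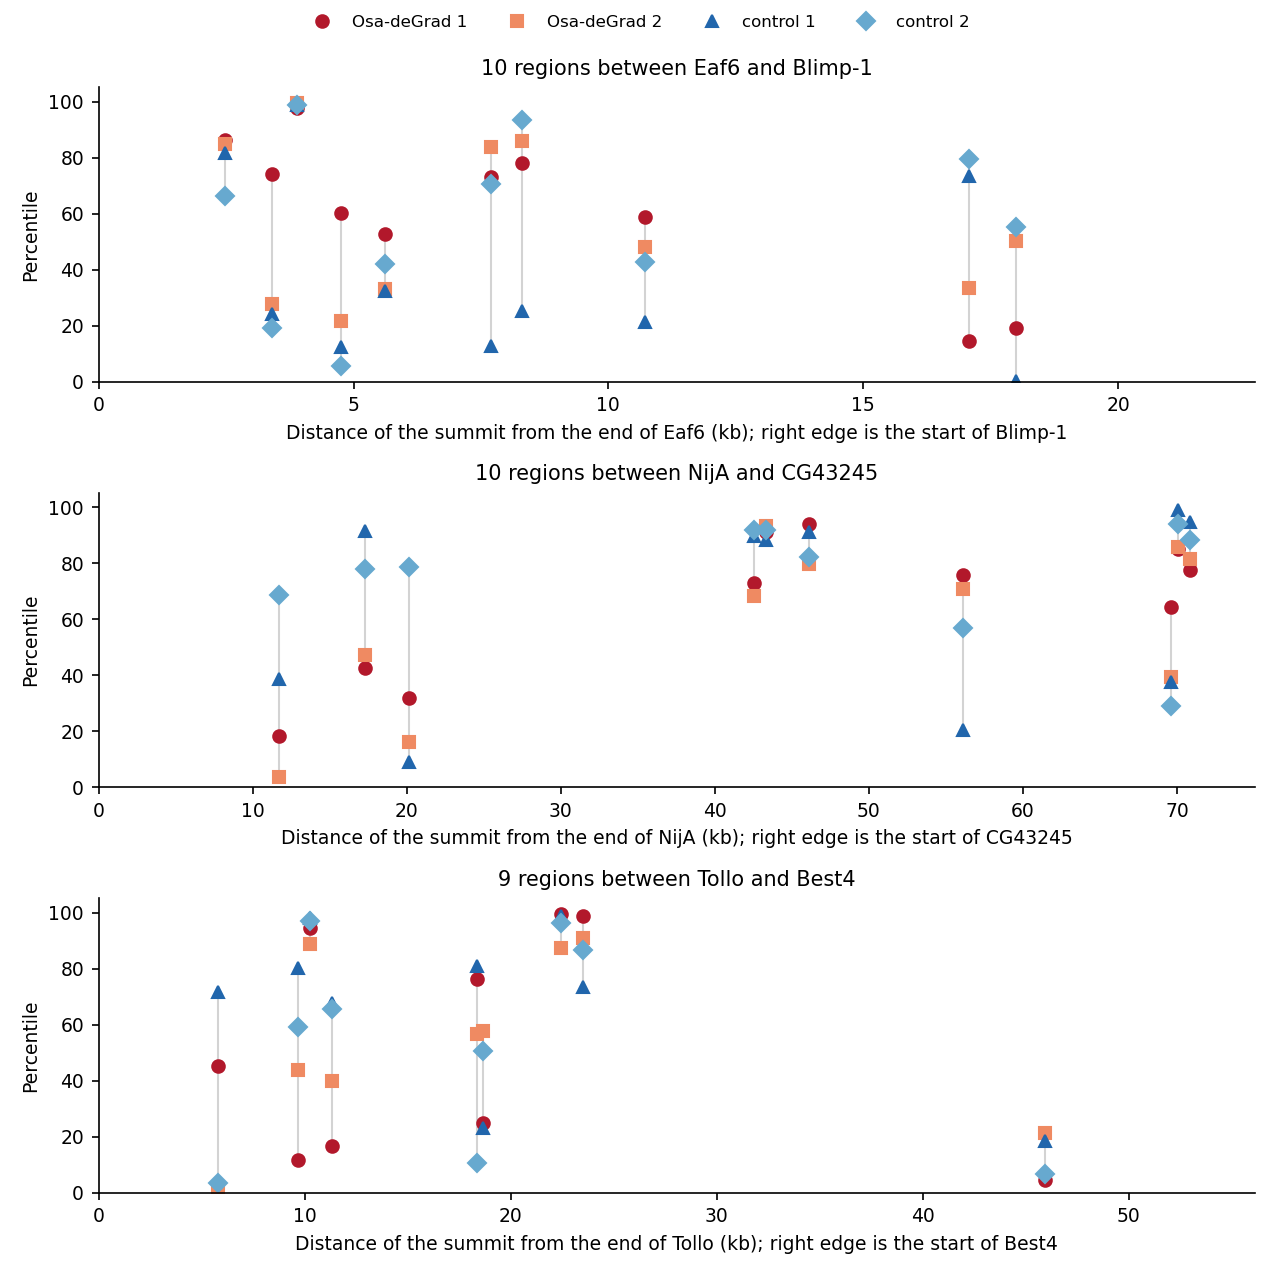
Percentile of each intergenic shared region in the 4 libraries (y axis) against the distance of its summit from the gene at the left edge of the gap (x axis, kb), for the 3 gaps with the most regions. Circles and squares are Osa-deGrad libraries, triangles and diamonds controls. Of 10 regions before Blimp-1, 5 ranked higher in Osa-deGrad, and of 10 between NijA and CG43245, 5 ranked lower. Over all narrow shared regions 18.0% ranked higher and 17.3% lower.

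Over the 6 regions before scro the medians were higher in the replicate 1 libraries than in the replicate 2 libraries. The median percentiles were 63.5 in Osa-deGrad 1 and 96.4 in control 1, but 29.9 in Osa-deGrad 2 and 15.01 in control 2. The strongest of the 6, at 24672967, did not share this pattern and was at or near the top in every library. At 24679131 to 24679448, for example, folds were 6.02 and 14.5 in the replicate 1 libraries and 2.83 and 3.24 in the others. All 6 had a lower mean percentile in Osa-deGrad than in control wings, with a median difference of -18.3 points, but the genotypes overlapped in 5 of them. On the far side of scro, 1 region 4994 bp away was weak in all 4 lists (folds of 4.08, 4.104, 3.93 and 4.16) and ranked higher in Osa-deGrad by 2.59 points. In the gap of Su(z)2, a Polycomb group gene, all 6 regions overlapped. The strongest of them (2R, 13038677 to 13039229) had folds of 11.2, 10.5, 12.6 and 12.6.

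Among signalling genes, ptc, the Hedgehog receptor gene, had 6 regions in the gap shared with CG8635, of which 2 ranked lower, 1 higher and 3 overlapped. The region 816 bp from ptc ranked lower and had folds of 4.08, 3.76, 5.50 and 5.04, and the strong one at 2R 8645946 to 8646764 had 9.87, 9.75, 9.82 and 11.8 with no separation. Beside hh, its ligand gene, 1 of 3 ranked higher (3R, 23143328 to 23143905, with 7.98, 8.05, 7.005 and 6.92). At upd3, a JAK/STAT ligand gene, 2 of 4 ranked lower, including X 18269289 to 18269861 with 4.74, 2.99, 12.2 and 6.93. The 3 regions at 18w, a Toll-family gene, and the 2 at dally, a glypican gene, overlapped, and 1 of 3 at the FGF gene pyr ranked higher, in the gap shared with its paralogue ths. Of the 33 regions at signalling genes 7 ranked lower and 5 higher (21.2% and 15.2%, against 17.3% and 18.0% of all narrow shared regions), with a median difference of -3.83 points against -2.97 for all 737.

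Of the 76 regions at transcription factor genes, 17 ranked lower and 12 higher (22.4% and 15.8%, against 24.7% and 13.3% of the 737 and 17.3% and 18.0% of all narrow shared regions), with a median difference of -1.79 points. Dll had a further region that ranked lower, 5660 bp from the gene (2R, 24840995 to 24841499, with 7.08, 7.74, 10.2 and 11.1), and another that overlapped. Both pnr, a GATA factor gene of the dorsal thorax, and dsx, the sex determination gene, had 3 regions, of which 2 and 1 ranked lower. All 3 at lz, a Runx factor gene, overlapped. The single regions at bs, the intervein gene (2R, 24337544 to 24337851), and rn (3R, 7310597 to 7311052) did too, with folds of 3.58, 4.17, 4.32 and 3.59 at bs and 8.51, 7.01, 7.86 and 7.01 at rn. Both regions of the long gap beside vvl, a POU-domain gene, ranked lower, such as 3L 6824030 to 6824560 with 5.45, 5.13, 6.68 and 10.1.

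The following were picked after their values were seen. A region 2108 bp from wg, the Wingless ligand gene (2L, 7318220 to 7318670), ranked lower, with folds of 4.77, 5.30, 8.25 and 12.0. So did the region before the Notch ligand gene Ser (3R, 27167630 to 27168271, with 3.57, 3.03, 7.16 and 6.35). The region in the gap of Eip93F, an ecdysone-induced temporal factor gene, had 3.26, 5.09, 9.11 and 8.83 (3R, 21919660 to 21920266). The region in the gap of the vein gene kni had 4.35, 4.31, 6.19 and 7.72 (3L, 20711504 to 20711871). In all 4 of them the 2 genotypes did not overlap.

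Markers of other cell types and further lists bordered few regions. At muscle genes there were 3, of which that at sls, the titin gene, ranked lower and that at sns, an adhesion gene of myoblast fusion, higher (15.3, 11.5, 9.82 and 9.42), while that at Act88F, the flight muscle actin gene, overlapped. Tracheal markers had 4, at vvl, knrl and pio, of which the 2 at vvl ranked lower. These genes also stand on other lists here, vvl and knrl among transcription factors and pio among cuticle genes. Their regions therefore do not mark trachea as opposed to wing. Hemocyte markers had the 3 at lz. The region at E(spl)malpha-BFM ranked lower and that at hry overlapped. The regions at nAChRalpha7, a neuronal acetylcholine receptor gene, and RpS3A ranked lower, and those at Ten-m and caps overlapped.

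At the limits of the definition, the regions closest to a gene were 502 bp from lectin-28C (2L, 7856461) and 503 bp from Aplip1 (3L, 1199725, in the gap with mwh), and just excluded were regions 496 bp from a gene end in the CycD to Lrp4 and CG11498 to VhaAC45RP gaps. The widest region kept measured 997 bp (X, 9881175, at CG9689), and the narrowest excluded ones 1003 bp, in the gap of the Iroquois gene mirr, and 1009 bp, beside LPCAT. In all, 52 intergenic regions in all 4 lists were left out for their width.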

How the data were processed

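The authors deposited 1 narrowPeak list per FAIRE-seq library (2 Osa-deGrad and 2 control libraries) on dm6. Tools listed in the submitters' processing notes, without roles, were MACS2 2.1.2, Bowtie2 2.3.4.1, deepTools 2.4.1, Picard 2.2.4 and SAMtools 1.9. Per the peak names in the deposited lists, reads were trimmed, quality-filtered and freed of duplicates. For the caller's settings nothing is given in the sources used here. In the deposited lists each peak has a fold enrichment (a ratio over local background), a −log10 p, a −log10 q and an integer score taken from the latter. A longer list reaches weaker peaks, so list length affects which regions are shared. Peaks were merged at 1 bp overlap and coordinates made 1-based. The summit came from the peak best ranked by −log10 q within its list. Genes were placed with a RefSeq table (17872 genes without strand or exons, assembly Release 6 plus ISO1 MT), so upstream and downstream of a gene could not be told apart. A gap is the stretch between the flanking genes, and 3 regions at chromosome ends had none. No genome sequence was used here, so no sequence is printed and the planned GC and motif description was not made. Symbols in older form were matched through a hand-written table or the locus tag. Ranks, medians and exact permutation tests used Python 3.11.15 with numpy 2.4.6, pandas 2.3.3 and scipy 1.17.1, and classification, merging and the call rule were checked on simulated data. Regions were named by strength, by separation of the genotypes, by gap length or crowding, and for up to 6 genes a list. The regions and lists were chosen with earlier results of these data known. One region that the naming rule selects is not reported here.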

Additional observations from a re-analysis of the deposited data

How the results depend on the processing

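Read depth is unknown and sites just under a caller's threshold are missed, so shared regions favour strong sites, and 2 libraries a genotype allow no test of a region. Ranking the 737 among themselves, an alternative added after the data were seen, gave 154 higher regions and a median difference of 0.746 points. That ranking centres the set in every library, so its sign is no reversal of a shift of the set. With a 250 bp window around gene ends the 915 regions made up 12.3% of narrow shared regions, with a median distance of 1260 bp, a median gap of 7949 bp, 20.9% in deserts, a median percentile of 48.7 (50.7 as reported) 149 higher regions and a median difference of -1.68 points. With 1000 bp, 519 regions were left and the values were 6.996%, 2901 bp, 13338.5 bp, 33.3%, 52 higher regions and -4.69 points. The higher regions made up 16.3% at 250 bp and 10.02% at 1000 bp, against 18.0% of all narrow shared regions. Limited to under 500 bp, 445 regions were left, 54 of them in gaps with 3 or more, with a median percentile of 52.6, 104 lower and 57 higher. These were 23.4% and 12.8%, against 16.6% and 16.8% of all shared regions under 500 bp. At −log10 q of 5 or more, 467 were left, 92 in gaps with 3 or more, with a median percentile of 55.006, 99 lower and a median difference of -1.79 points. The lower ones made up 21.2%, against 16.5% of all narrow shared regions at that limit. With protein-coding genes only, 950 regions (12.8%) were intergenic, at a median of 2559 bp in gaps of 16015 bp, 41.6% in deserts, 365 in crowded gaps and 13.5% beside a transcription factor gene. Deserts of 50 kb or more held 5.97%. Leaving out 1 library gave 308 to 354 lower and 227 to 250 higher regions, where 1 library against 2 separates more often by construction, and a median percentile of 48.8 to 51.03. These were 38.5% to 41.1% lower and 27.1% to 30.4% higher. Over all narrow shared regions the shares were 32.0% to 34.5% lower and 33.4% to 37.0% higher. With best summits within 100 bp, also added after the data were seen, 73 ranked lower and 53 higher among 376. Otherwise the cause was not tested. Of the 16 most separated regions, 7 were lost at 1000 bp, 6 under 500 bp, 10 at −log10 q of 5 or more, and Np also with the median summit. Taken by replicate block, 246 regions were lower and 166 higher in both same-numbered pairs (33.4% and 22.5% of the 737), where 25.8% and 27.9% of all narrow shared regions were, with the same median difference of -2.97 points. Deviations of same-numbered libraries correlated at 0.117 over 7419 regions, and with 2 pairs the numbers were not taken to pair the samples.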
